A study of Mus musculus with 5 samples.

Results

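The 8 genes Fli1, Erg, Ets1, Ets2, Etv2, Etv6, Elk3 and Elf1 encode transcription factors of the ETS family that act in endothelial and blood cells. They were taken by RefSeq symbol from 21774 protein-coding genes of the mouse build mm10, and all 8 were found. In each of 5 lists of DNaseI hypersensitive sites (DHSs), a site was assigned to one of these genes if it came within 1 kb of any annotated transcription start site (TSS) of the gene, or if its middle lay inside the gene or up to 100 kb from its TSS and that gene was the nearest protein-coding gene. This gave 185 of the 135173 listed sites, which fell into 127 of 68846 merged regions. A merged region is made of 500 bp windows around the middle of the sites, joined across stages where they overlapped by at least 25% of a window.

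DNaseI-seq finds stretches of chromatin that the nuclease DNase I can cut. The lists came from 5 populations made in culture from 1 line of mouse embryonic stem (ES) cells, strain 129. The line reports the mesodermal gene Brachyury (Bry) by GFP and was grown on mouse embryonic fibroblasts before embryoid bodies were formed. Mesoderm (MES) was sorted as Bry:GFP+ Flk1- cells and hemangioblasts (HB) as Bry:GFP+ Flk1+ cells. Hemogenic endothelium (HE) was Tie2+ cKit+ CD41-, whereas progenitors of blood (HP) were CD41+. Macrophages (MAC) were CD11b+ cells grown from the CD41+ cells. Every population descends from that line and was chosen by surface markers or the reporter, so none is a tissue taken from an animal. There was 1 list per stage, also for MAC, whose label names 2 replicates together, so no difference between stages could be set against a spread between replicates and no test was run. The lists give only the start and end of each site. Read depth is not given in these lists and was not used here, a site that is missing was not listed rather than shown to be closed, and intervals given with shares cover counting error only.

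ETS factors share a DNA-binding domain that reads a short core with the letters GGAA, and they are told apart by the bases around it, by partner proteins and by where they are expressed. In the embryo, Etv2 is switched on briefly in mesoderm that will form vessels and blood, and Fli1, Erg and Ets1 keep the endothelial programme going afterwards. Several of these proteins bind beside GATA, RUNX and E-box binding factors at enhancers of blood genes, including the genes of ETS factors themselves.

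The lists held between 17734 sites (HP) and 37456 sites (MAC), with median widths from 600 bp (MAC) to 1200 bp (HE). Promoter sites at genes of the sorted cell types were checked against the labels. The HE list had a site within 1 kb of a TSS of all 4 endothelial markers, Tek (Tie2), Kit, Cdh5 and Pecam1, and the MAC list had one at 3 of 3 macrophage markers, Itgam (CD11b), Csf1r and Cd68, and at 0 of 4 endothelial markers. The MES list was positive at 2 of 2 mesodermal markers, T and Mixl1, and the HB list at 2 of 2 hemangioblast markers, Kdr and Tal1. These were not specific, since T was positive in HB too, Mixl1 in HB and HE, and Tal1 in HE, HP and MAC. Of the endothelial markers, Kit was positive in MES, HB and HP too and Pecam1 in HP, whereas Tek and Cdh5 were positive in HE alone. Myod1, a muscle gene taken as a marker of another lineage, was positive in MES and HB. Of the progenitor markers, Itga2b (CD41) was positive in HP but also in HE, and Gfi1b in MAC only, so the HP list carried 1 of its 2 markers. Cd68 and Kdr were positive in all 5 lists. The MES list also had a site at the pluripotency gene Pou5f1, and at Nanog, which was positive in HB and HE too. What remaining ES cells or neighbouring stages contributed to the sites below was not tested.

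DHSs around the ETS factor genes were most frequent in HE and MAC. From MES through HB, HE and HP to MAC, the 8 genes had 16, 18, 65, 20 and 66 sites. As shares of the lists these were 0.0729%, 0.0728%, 0.195%, 0.113% and 0.176%. The HE and MAC lists were also the longest, but when every longer list was reduced to as many of its widest sites as HP has in all, the shares were 0.0620%, 0.0677%, 0.186%, 0.113% and 0.158% in the same order. That reduction leaves HP as it is. When sites narrower than the median of their list were dropped, the share of HP was 0.0769%, close to 0.0723% in MES and 0.0710% in HB, whereas HE had 0.195% and MAC 0.162%. The sequence assigned to the 8 genes covered 1269.6 kb. Per 100 kb of it there were 1.26 sites in MES against 1.23 over all 20988 genes compared, 1.42 against 1.36 in HB, 5.12 against 1.80 in HE, 1.58 against 1.00 in HP and 5.20 against 2.02 in MAC. In MES and HB the 8 genes were thus about as densely covered as the genome's genes at large, and in HE and MAC more densely. In HP the density was also above that of all genes, on 20 sites of which 7 reached the median width of the list.

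**Figure D1:**
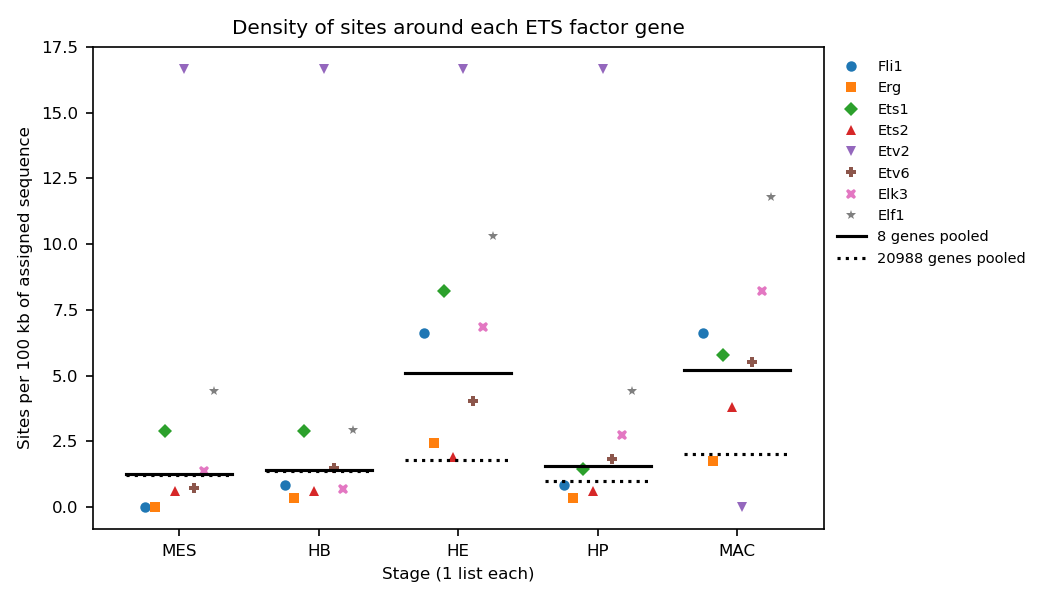
Sites per 100 kb of sequence assigned to each gene (vertical axis) in the 5 stages (horizontal axis), with 1 symbol per gene, solid lines for the 8 genes pooled and dotted lines for 20988 protein-coding genes pooled. The pooled lines nearly coincide at MES and HB and separate at HE (5.12 against 1.80) and MAC (5.20 against 2.02), while Etv2, with 12 kb assigned to it, sits at 16.7 in 4 stages and at 0 in MAC.

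The genes did not contribute equally. Ets1 had 6, 6, 17, 3 and 12 sites from MES to MAC. Etv6 had 2, 4, 11, 5 and 15 sites in that order. Elk3 had 2, 1, 10, 4 and 12 sites, and Elf1 had 3, 2, 7, 3 and 8. These 4 genes made up most of the 185 and, like Ets2, had sites in every list. Fli1 had 0, 1, 8, 1 and 8. Erg had 0, 1, 7, 1 and 5. Both genes went from no or 1 site before HE to 7 or 8 in HE and back to 1 in HP. Ets2 had 1, 1, 3, 1 and 6 sites. Etv2 differed from the others in that it had 2 sites in each of MES, HB, HE and HP and 0 in MAC.

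Set against 20988 protein-coding genes, the 17 HE sites of Ets1 were matched or exceeded by 0.0572% of genes, and the 11 HE sites of Etv6 by 0.496%. The 15 MAC sites of Etv6 were matched or exceeded by 0.262% of genes. For Fli1, 1.66% of genes had as many sites in HE and 2.92% in MAC. Apart from Etv2, to which 12 kb was assigned, these genes lie in wide stretches with few neighbours, from 67.8 kb assigned to Elf1 to 286.2 kb assigned to Erg, against a median of 49 kb per gene. Per 100 kb in HE, 10.2% of genes were as dense as Ets1, 14.6% as dense as Fli1 and 40.7% as dense as Erg. The HE share was 27.1% for Etv6, 47.2% for Ets2, 13.9% for Elk3, 6.69% for Elf1 and 2.22% for Etv2. In MAC it was 20.5% for Ets1, 16.9% for Fli1, 50.0% for Erg and 21.6% for Etv6. For Ets2, Elk3 and Elf1 the MAC shares were 32.1%, 11.9% and 5.88%.

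**Figure D2:**
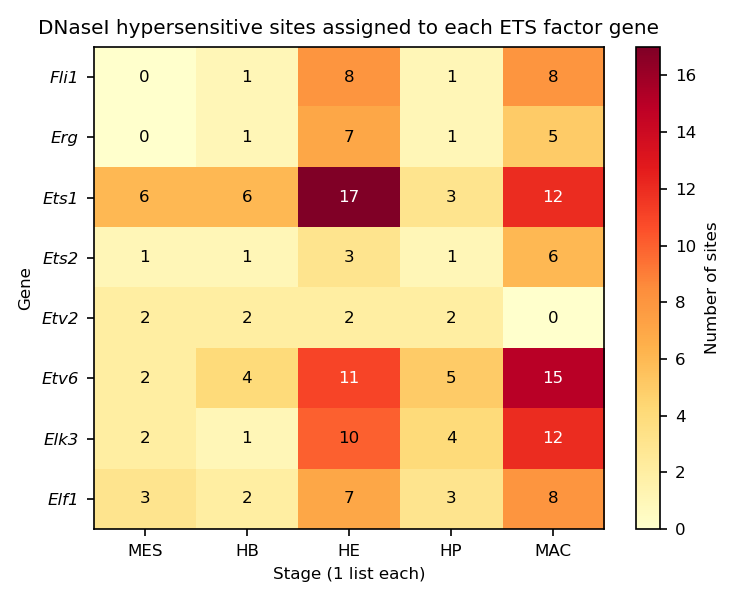
Number of DHSs assigned to each of the 8 genes (rows) in each of the 5 stages (columns), with 1 list per stage and the colour scale from 0 to 17 sites. The HE and MAC columns hold the highest counts for every gene but Etv2, whose row reads 2, 2, 2, 2 and 0.

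At promoters the same genes were covered more evenly. A site within 1 kb of a TSS was listed for 5 of 8 genes in MES, 7 of 8 in HB, 8 of 8 in HE, 6 of 8 in HP and 6 of 8 in MAC. Over all protein-coding genes the shares with such a site, from MES to MAC, were 55.5%, 57.1%, 59.9%, 48.6% and 48.7%. With 8 genes the intervals are wide, for example 40.9% to 92.9% around 6 of 8 (95% Wilson), and they hold the genome-wide share in every stage but HE, where the interval for 8 of 8 runs from 67.6% to 100%. In HE the other ETS genes of the mouse had a promoter site in 14 of 18 (77.8%), inside that interval. Ets1, Ets2, Etv6 and Elf1 had a promoter site in all 5 stages, a pattern that 42% of protein-coding genes had.

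The other 4 genes each had a promoter pattern of their own. Fli1 was listed in HE and MAC, as were 0.744% of genes. Erg was listed in HB and HE (1.33% of genes), Etv2 in MES, HB, HE and HP (3.81%), and Elk3 in HB, HE, HP and MAC (0.528%). Of the 18 remaining ETS genes of the mouse, 10 had a promoter site in all 5 stages, among them the ternary complex factor genes Elk1 and Elk4 and the ubiquitous Gabpa. Elf5, Spdef, Spib and Spic, known from epithelia or from lymphoid and macrophage lineages, had none in any stage. Spi1, which encodes the myeloid master regulator PU.1, was listed in HE, HP and MAC. Etv3 had the pattern of Etv2, and Ehf and Fev had that of Erg.

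**Figure D3:**
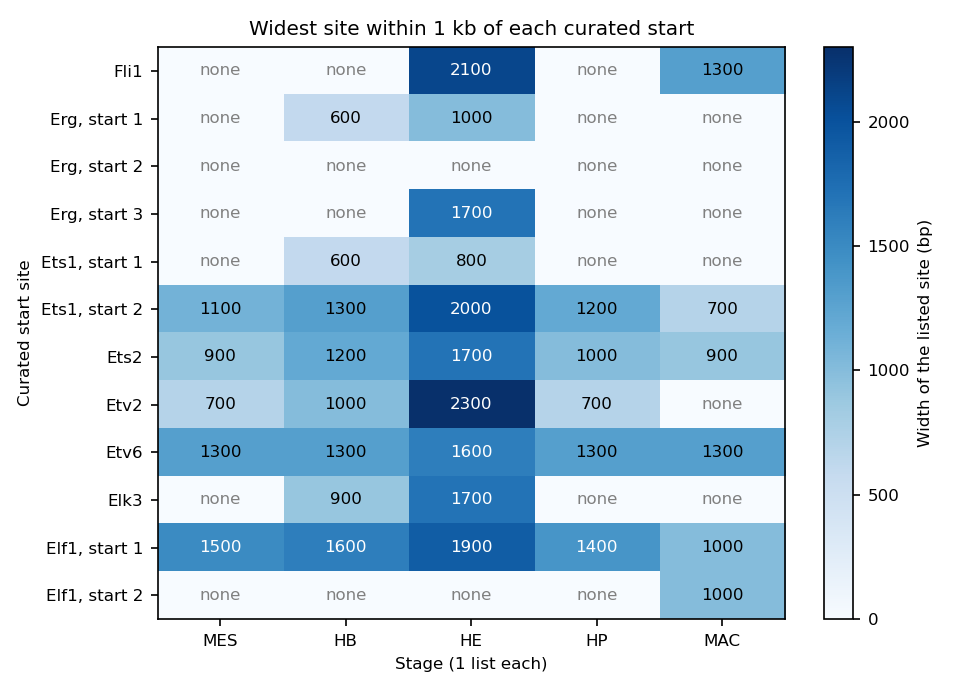
Width in base pairs of the widest DHS within 1 kb of each curated mRNA start (rows, numbered in the direction of the gene where there are several) in each stage (columns, 1 list each), with "none" where no site was listed. Erg, Ets1 and Elf1 have starts that differ in their stages, and the HE entry is the widest at every start listed in more than 1 stage.

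Single promoters were resolved further by TSS. Etv2, the factor that commits mesoderm to vessel and blood fates, lies on the minus strand at chr7:30633616-30636509 and is only 2.894 kb long. Its curated TSS at position 30635852 had a site in MES (700 bp), HB (1000 bp), HE (2300 bp) and HP (700 bp). The MES and HB sites lay 1.02 and 0.994 kb downstream of the start by their middles, inside the gene, and the HP site lay just upstream of it. The HE site spanned both places and overlapped the sites of the other 3 stages. Because only middles were merged, these sites gave 3 separate regions of 1 or 2 stages. Merged by deposited intervals, Etv2 had 2 regions, both listed in MES, HB, HE and HP. The nearest MAC site was 9.443 kb from the start.

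The second Etv2 region lay upstream in intergenic sequence, 2.86 kb before the nearest annotated start. It was listed in MES (500 bp wide), HB (700 bp), HE (900 bp) and HP (400 bp). By gene span, and not by TSS, the neighbouring gene Rbm42 was nearer, at 1.626 kb against 2.86 kb for Etv2, so the region would leave Etv2 under that rule. In neither reduction by width, to the sites at or above the median of their list or to the widest sites, was any Etv2 region listed in these 4 stages. The sequences below are shown for the elements next to a gene that had sites in 4 stages. They were read from the RefSeq promoter table (from 240 to 31 bases before the curated start) and from the GRCm38 genome (the central 300 bases of the upstream region). Each runs 5′ to 3′ on the strand of the gene, at chr7:30635883-30636092 and chr7:30639220-30639519. Capitals mark letters of any of 10 consensus motifs, named beside each result.
Etv2 promoter: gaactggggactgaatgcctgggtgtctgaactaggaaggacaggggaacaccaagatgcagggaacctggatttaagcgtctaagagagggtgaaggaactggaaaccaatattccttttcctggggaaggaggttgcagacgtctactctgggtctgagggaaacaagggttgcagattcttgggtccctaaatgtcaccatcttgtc
Etv2 upstream region: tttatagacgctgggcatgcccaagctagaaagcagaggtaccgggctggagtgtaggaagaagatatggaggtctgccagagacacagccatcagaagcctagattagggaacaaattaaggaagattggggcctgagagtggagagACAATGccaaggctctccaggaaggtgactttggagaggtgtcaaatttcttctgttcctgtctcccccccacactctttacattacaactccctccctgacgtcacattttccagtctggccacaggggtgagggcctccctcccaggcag
All 300 printed bases of the upstream region lay inside the sites of MES, HB, HE and HP. The printed promoter bases lay inside the HE site, met the HP site by 16 bases and lay outside the MES and HB sites. The Etv2 promoter stretch had a GC share of 0.505, 2 CG dinucleotides and no match to any of the 10 motifs. The upstream element held 1 match, to the SOX letters ACAATG at bases 149 to 154, which 13.9% of all merged regions held in their central 300 bp. A match is a string of letters and not a measured binding site.

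Erg, which in adult tissue maintains endothelium and blood stem cells, had 3 curated starts on the minus strand of chr16 with 3 different patterns. The first start, at 95586593, had a site of 600 bp in HB and 1000 bp in HE. The second, at 95530365, had no site within 1 kb in any of the 5 lists. The third, at 95459348, had a site of 1700 bp in HE and in no other list. HP and MAC had no site at any Erg start. The stretches from 240 to 31 bases before the 3 starts are shown in order, at chr16:95586624-95586833, chr16:95530396-95530605 and chr16:95459379-95459588, since they belong to starts of 1 gene with unlike patterns.
Erg start 1: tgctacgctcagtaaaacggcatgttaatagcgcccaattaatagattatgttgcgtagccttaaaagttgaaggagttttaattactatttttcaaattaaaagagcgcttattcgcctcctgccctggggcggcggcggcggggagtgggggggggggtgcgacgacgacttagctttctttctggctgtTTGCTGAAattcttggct
Erg start 2: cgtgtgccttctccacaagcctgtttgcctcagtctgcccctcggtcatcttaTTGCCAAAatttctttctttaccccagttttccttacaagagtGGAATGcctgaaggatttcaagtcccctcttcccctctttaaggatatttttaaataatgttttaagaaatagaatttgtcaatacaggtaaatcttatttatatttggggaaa
Erg start 3: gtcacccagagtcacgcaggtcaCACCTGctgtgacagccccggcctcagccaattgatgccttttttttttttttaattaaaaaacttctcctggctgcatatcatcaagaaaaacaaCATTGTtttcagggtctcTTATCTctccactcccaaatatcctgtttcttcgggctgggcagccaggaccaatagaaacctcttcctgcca
Of these stretches, only the one before the third start lay inside a site, that of HE. The HB and HE sites at the first start lay downstream of the bases shown for it. The stretch before the first start had 13 CG dinucleotides, which is 1.12 times the number its base composition predicts. The other two had 2 and 3 CG dinucleotides, or 0.271 and 0.290 times the predicted number. The third, listed in HE only, held the E-box letters CAGNTG at bases 24 to 29, the SOX letters from base 120 and the GATA letters AGATAA at 138 to 143, all as their reverse complement. Over the 32851 promoters of the table, the same 210 bases held the E-box letters in 39.5%, the SOX letters in 9.30% and the GATA letters in 8.59%. The first held only the CEBP letters TTGCNNAA (bases 193 to 200), present in 8.32% of promoters. The second held these (54 to 61) and the TEAD letters CATTCC, reversed, at bases 97 to 102 (11.0% of promoters).

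Ets1, expressed in endothelium and lymphocytes, showed a similar split between its 2 curated starts on the plus strand of chr9. The upstream start at 32636241 had a site of 600 bp in HB and 800 bp in HE and none in MES, HP or MAC. The downstream start at 32696037 had a site in all 5 stages, of 1100, 1300, 2000, 1200 and 700 bp from MES to MAC. The upstream starts of Ets1 and Erg thus had the same pair of stages.

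Fli1, a close relative of Erg that lies at chr9:32422204-32543432 on the minus strand, had 1 curated start, at 32541452. In HE a site of 2100 bp lay across it, with its middle 98 bp upstream. In MAC a site of 1300 bp lay 1.602 kb downstream by its middle. These intervals met end to end and did not overlap, so the promoter that counted as listed in both stages was listed over different bases. Fli1 and Ets1 had no entry in the promoter sequence table used, which held the other 6 genes.

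Elk3, a ternary complex factor that represses its targets with serum response factor, had a promoter site in HB (900 bp), HE (1700 bp), HP (500 bp) and MAC (500 bp). Within 1 kb of its curated start at 93311159 on chr10 only the HB and HE sites were found. The HP and MAC sites were closest to a predicted start at 93310113, further into the gene. With curated starts alone, Elk3 therefore also had the pair HB and HE. The remaining Elk3 start, also predicted, was listed in HE alone.

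Elf1, an activator of endothelial and blood genes, had a site in all 5 stages at its first curated start, from 1000 bp in MAC to 1900 bp in HE. Its second curated start, at 79515674 on chr14, had a site of 1000 bp in MAC and none in the other 4 lists. A predicted start between them, at 79487533, was listed in MES, HB, HE and HP but not in MAC. Ets2, a broadly expressed effector of growth factor signalling, had 1 start, with sites of 900, 1200, 1700, 1000 and 900 bp from MES to MAC. Etv6, a repressor needed for blood formation in the bone marrow, had sites of 1300 bp in MES, HB, HP and MAC and 1600 bp in HE at its curated start. The sites at the first start of Elf1 also lay within 1 kb of a TSS of Wbp4, those of Etv6 of Gm46977, those of Ets2 in 4 stages of Gm31989, and an HE site of Elk3 of Gm32551, so these promoters cannot be credited to 1 gene.

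Most regions belonged to 1 stage. Of the 127 merged regions, 95 (74.8%, 95% Wilson interval 66.6% to 81.5%) were listed in a single stage, against 60.2% of all regions. MAC alone accounted for 51 regions (40.2%, 32.0% to 48.9%), against 31% of all regions, and HE alone for 37 (29.1%, 21.9% to 37.6%), against 17.1%. Some of the wide HE sites counted as HE alone overlapped sites of other stages whose middles lay apart. Merged by deposited intervals, the genes had 122 regions, 89 of a single stage, 50 of MAC alone and 33 of HE alone. Shares over all regions are not given for that merging. Regions listed in all 5 stages were fewer, with 4 of 127 (3.15%, 1.23% to 7.82%) against 13.2%. These 4 were promoter regions. Of the 127 regions 17 lay at a promoter, against 17073 of the 68842 regions of the series off the mitochondrial chromosome. A further 7 regions were listed in HE and MAC only (5.51% against 3.48%) and 6 in HE and HP only (4.72% against 2.15%). MES, HB and HP alone had 3, 2 and 2 regions. Of the 17 promoter regions, 7 were of a single stage (41.2%, 21.6% to 64.0%) and 4 of all 5 (23.5%, 9.56% to 47.3%). In promoter regions of the series these shares were 26.5% and 44.5%. Of the 110 regions that were not at a promoter, 88 were of a single stage (80.0%, 71.6% to 86.4%) and 0 of all 5 (0% to 3.37%), against 71.3% and 2.84% of the regions of the series that lay at no promoter. For regions of all 5 stages, the interval thus held the share of the series in both kinds.

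**Figure D4:**
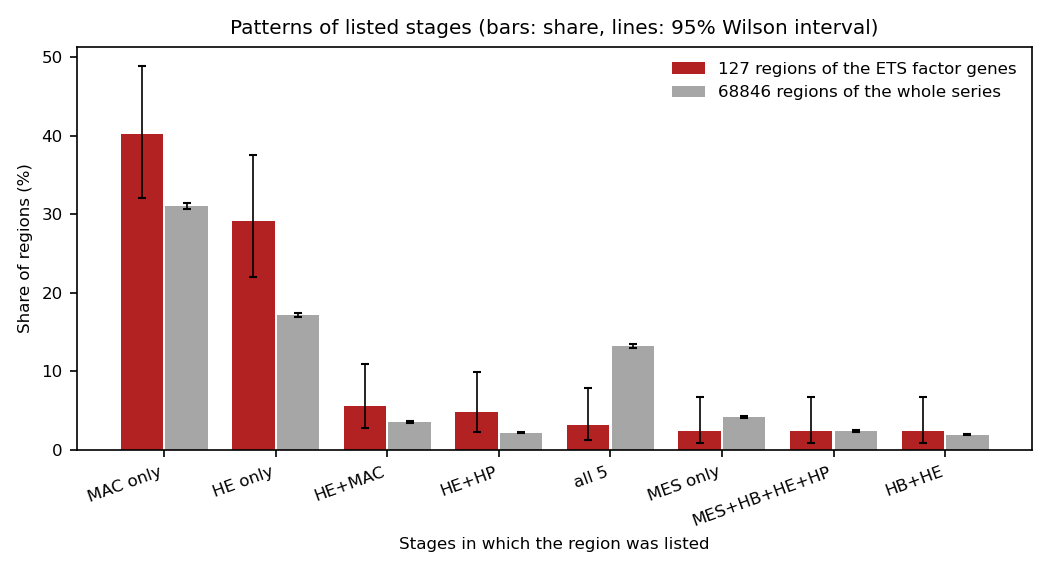
Share in percent (vertical axis) of the 127 regions of the ETS factor genes (red) and of all 68846 regions (grey) with each pattern of listed stages (horizontal axis, the 8 patterns with at least 3 regions), with lines for the 95% Wilson interval. HE-only regions make up 29.1% against 17.1%, and regions of all 5 stages 3.15% against 13.2%, with promoter and other regions pooled.

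The HE and MAC regions were largely different regions. Of 65 regions of the ETS factor genes listed in HE, 15 (23.1%, 14.5% to 34.6%) were also listed in MAC, whereas this held for 42.5% of HE regions in the whole series. Beyond 2 kb from a start the shares were 9 of 52 (17.3%, 9.38% to 29.7%) and 28.1%, which lies inside the interval. By overlap of the deposited intervals, which does not depend on the merging, 16 of 65 HE sites (24.6%) met a MAC site, against 46.2% overall. Of the HP regions, 16 of 20 were also HE regions (80.0%), next to 80.5% in the whole series. The HE list had the widest sites and the MAC list the narrowest. When every longer list was reduced to as many of its widest sites as HP has in all, 6 of 33 HE regions (18.2%, 8.61% to 34.4%) were also MAC regions, against 46.2% of all HE regions. These shares include promoter regions, and the reduced lists were not compared beyond 2 kb alone.

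At Fli1 no region was shared between them. The gene had 8 regions in HE and 8 in MAC. The HE regions lay between 40.8 kb before and 21.7 kb after the curated start, with 5 centred before it. The MAC regions lay from 1.6 to 66.3 kb downstream and none was upstream. All MAC regions but the one beside the promoter lay beyond the most downstream HE region, the first of them at 24.7 kb. The single HP region, 600 bp wide, was the HE region at 15.5 kb (1400 bp in HE), and the single HB region, of 500 bp, was the HE region 40.8 kb upstream (1300 bp in HE).

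**Figure D5:**
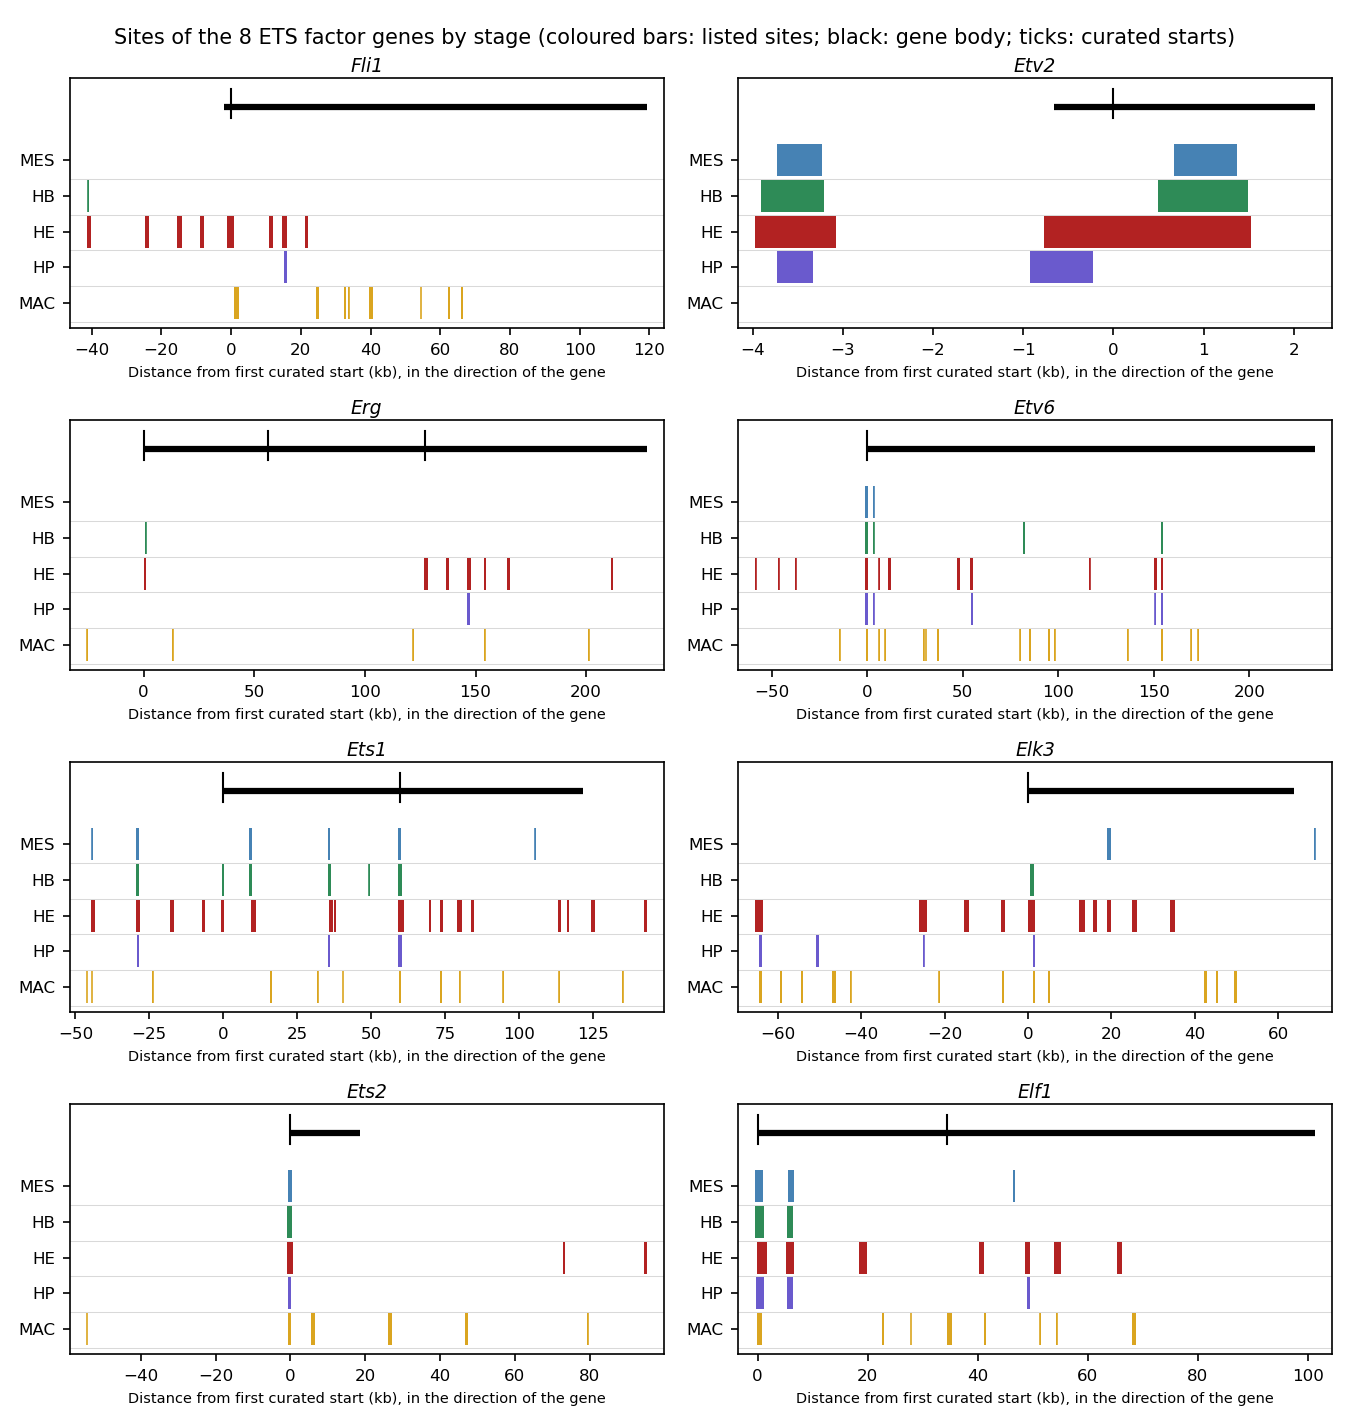
Position of every listed site of the 8 genes as the distance in kb from the first curated start in the direction of the gene (horizontal axes, which differ in range), with 1 row per stage, the gene body in black and curated starts as ticks. Fli1 sites in HE lie between -40.8 and 21.7 kb and those in MAC between 1.6 and 66.3 kb by region centre, whereas the Etv2 rows of MES, HB, HE and HP hold 2 sites each and the MAC row none.

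Fli1 and Ets1 lie next to each other and point away from each other, and so do Erg and Ets2. The pairs arose by duplication of an ancestral pair. The 92.8 kb between Fli1 and Ets1 held 11 merged regions by their centres, of which 9 were listed in HE, 3 in MAC and 1 in both. Without the region at the upstream Ets1 start there were 10, counted from MES to MAC as 2, 2, 8, 1 and 3. The 115.8 kb between Erg and Ets2 held 3 regions. Of these, 1 was the Ets2 promoter region, listed in all 5 stages, and the other 2 were listed in MAC alone. A site in either interval could serve either neighbour, and the assignment by distance does not decide this.

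Erg had 7 regions in HE and 5 in MAC, with 1 in both. Apart from the region at the first start, the HE regions lay downstream of the third start, and none lay around the second. The MAC regions ran from 25.5 kb upstream of the first start to 201.1 kb downstream. The widest HE site beyond 2 kb of a start measured 1800 bp and lay in an intron 19.1 kb downstream of the nearest start. The same region had the only HP site of Erg, of 1300 bp, and no MAC site. It is shown as the Erg region listed in both HE and HP, at chr16:95439514-95439813 on the strand of the gene.
Erg HE and HP region: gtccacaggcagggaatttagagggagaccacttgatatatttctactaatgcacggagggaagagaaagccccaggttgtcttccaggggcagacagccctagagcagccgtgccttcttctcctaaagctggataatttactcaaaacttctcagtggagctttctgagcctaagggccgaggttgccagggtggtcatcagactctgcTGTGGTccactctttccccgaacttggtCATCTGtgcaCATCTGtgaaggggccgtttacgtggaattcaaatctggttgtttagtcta
It held the RUNX letters TGTGGT at bases 212 to 217 and the E-box letters, reversed, at 240 to 245 and at 250 to 255. Of all merged regions, 22.6% held the RUNX letters and 56.2% the E-box letters in their central 300 bp. A second Erg intron region, listed in HE alone with 1000 bp, is shown because its central 500 bp held ETS, GATA, E-box and RUNX letters together. Its central 300 bases lay at chr16:95374869-95375168.
Erg HE region: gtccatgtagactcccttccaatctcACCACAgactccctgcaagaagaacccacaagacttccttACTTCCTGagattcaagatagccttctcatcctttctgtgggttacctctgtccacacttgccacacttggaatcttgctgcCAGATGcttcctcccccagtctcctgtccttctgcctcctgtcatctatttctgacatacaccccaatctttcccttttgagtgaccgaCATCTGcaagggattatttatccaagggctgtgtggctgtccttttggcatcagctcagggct
Within these bases the RUNX letters, reversed, stood at 27 to 32 and the ETS letters CNGGAAGT, reversed, at 67 to 74. The E-box letters stood at 149 to 154 and, reversed, at 238 to 243.

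Ets1 had the most regions, 28, of which 10 were listed in HE alone and 7 in MAC alone. Of 17 HE regions, 5 were also MAC regions. Besides the promoter and a region 44.2 kb upstream, these lay downstream of the second start, at 13.9, 20.1 and 53.8 kb. Ets1 was also the gene with most regions listed before HE, 8 of the 23 listed in MES or HB. An intergenic region 28.9 kb upstream of the first start was listed in MES (700 bp), HB (900 bp), HE (1400 bp) and HP (700 bp). An intron region 9.2 kb after the first start was listed in MES (1000 bp) and HB (900 bp), and the widest HE site of Ets1 beyond 2 kb, of 1900 bp and with its middle at 10.2 kb, overlapped these sites although the windows around the middles did not merge.

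Etv6 had 25 regions, of which 12 were listed in MAC alone and 6 in HE alone. MAC regions lay from 14.6 kb upstream of the curated start to 173.3 kb downstream, with 13 of 15 downstream of it. An Etv6 intron carried a region listed in 4 stages, 83.6 kb from the nearest start, with a site of 600 bp in HB, of 1300 bp in HE and of 800 bp in HP and MAC alike. Its pattern was rare, as 0.524% of all regions had it. Another intron region, listed in HE (1400 bp) and HP (900 bp), lay 16.1 kb upstream of a predicted start and held ETS, GATA, E-box and RUNX letters in its central 500 bp. A region of HE alone, 23.0 kb upstream of the same start, was equally wide at 1400 bp. The central 300 bases of both regions are given in that order, since they carry unlike patterns within 1 gene, at chr6:134189758-134190057 and chr6:134090058-134090357, on the plus strand.
Etv6 region of HB, HE, HP and MAC: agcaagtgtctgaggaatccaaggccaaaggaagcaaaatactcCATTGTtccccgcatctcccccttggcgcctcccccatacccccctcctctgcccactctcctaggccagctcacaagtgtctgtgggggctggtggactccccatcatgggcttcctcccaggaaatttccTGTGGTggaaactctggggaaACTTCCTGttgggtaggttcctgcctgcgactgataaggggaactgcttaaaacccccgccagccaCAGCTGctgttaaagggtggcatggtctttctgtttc
Etv6 region of HE and HP: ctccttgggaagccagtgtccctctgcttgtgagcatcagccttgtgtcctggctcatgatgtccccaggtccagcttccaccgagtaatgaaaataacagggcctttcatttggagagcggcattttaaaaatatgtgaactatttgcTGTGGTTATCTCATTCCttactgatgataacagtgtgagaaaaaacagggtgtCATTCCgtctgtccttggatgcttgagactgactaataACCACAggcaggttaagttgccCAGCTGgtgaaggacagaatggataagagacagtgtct
The 4-stage region held RUNX letters at bases 177 to 182, the ETS letters, reversed, at 198 to 205, an E-box at 264 to 269 and SOX letters, reversed, at 45 to 50. In the HE and HP region the RUNX letters at 150 to 155, the reversed GATA letters at 155 to 160 and the TEAD letters at 161 to 166 followed each other within 17 bases, with RUNX and GATA sharing 1 base. A second TEAD match stood at 203 to 208, a reversed RUNX match at 241 to 246 and an E-box at 263 to 268. Its ETS matches lay outside the printed bases. The ETS letters were found in 10.6% of all regions over 300 bp, the GATA letters in 15.1% and the TEAD letters in 17.5%.

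Elk3 had 21 regions, 9 of MAC alone and 5 of HE alone. The region farthest upstream, 64.3 kb before the nearest start, was listed in HE (2000 bp), HP (700 bp) and MAC (600 bp), and its HE site was the widest of the 8 genes outside promoters. The bases shown are chr10:93375336-93375635, on the strand of the gene, all inside the HE and MAC sites and 275 of them inside the HP site.
Elk3 region of HE, HP and MAC: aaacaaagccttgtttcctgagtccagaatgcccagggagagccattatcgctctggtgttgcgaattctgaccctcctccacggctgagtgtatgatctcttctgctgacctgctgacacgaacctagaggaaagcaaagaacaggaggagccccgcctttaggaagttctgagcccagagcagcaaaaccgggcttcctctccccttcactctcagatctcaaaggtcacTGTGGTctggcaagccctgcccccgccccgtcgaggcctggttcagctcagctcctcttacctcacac
The only match was to the RUNX letters, at bases 233 to 238. A further 5 Elk3 regions upstream, between 21.3 and 59.3 kb, were listed in MAC alone. Elf1 had 14 regions, 6 of MAC alone and 3 of HE alone, and of its 7 HE regions 2 were also MAC regions. These were the promoter region of all 5 stages and a region at predicted starts 54.4 kb after the first curated start, listed in HE (1200 bp) and MAC (200 bp). The widest Elf1 site beyond 2 kb was an HE site of 1500 bp in an intron, 8.29 kb after the nearest start, and the widest in MAC there measured 800 bp, at 13.8 kb. Ets2 had 8 regions, and outside its promoter 5 were of MAC alone and 2 of HE alone. Those of HE lay 73.2 and 94.96 kb after the start, so with a limit of 50 kb in place of 100 kb Ets2 had 4 regions and no HE region but its promoter. The widest of the regions outside the promoter was a MAC site of 1100 bp in an Ets2 intron, 6.15 kb after the start.

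The regions were mostly intronic. By their centre, 82 lay in an intron (64.6%, 55.9% to 72.3%), 37 between genes (29.1%) and 8 in an exon, against 40.8% in introns and 43.0% between genes over all regions off the mitochondrial chromosome. Of the 127, 109 (85.8%) had their centre more than 2 kb from a start, against 76.0% of all regions. A region was called CpG-rich if G and C made up 0.5 or more of its central 500 bp and CG dinucleotides reached 0.6 of the number predicted from base composition. This held for 7 of 17 promoter regions (41.2%, 21.6% to 64.0%) and 0 of 110 other regions, against 64.7% of promoter regions and 2.91% of other regions in the series. All 4 regions listed in every stage were CpG-rich promoters, those of Ets1, Ets2, Etv6 and Elf1, with a median GC share of 0.671, against 0.480 in the 95 regions of a single stage.

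Motif letters were counted in the central 500 bp of each region on both strands. The ETS letters were in 27 of 127 regions (21.3%, 15.0% to 29.2%), against 14.8% of all regions. The PU.1 letters GAGGAAGT, which differ from the ETS letters in the first base, were in 10 (7.87%, against 8.25%). GATA letters were in 23.6% against 23.0%, E-box letters in 75.6% against 73.8%, RUNX letters in 31.5% against 33.2% and TEAD letters in 25.2% against 26.7%. AP1 letters (TGANTCA) were in 26.0% against 22.7%, CEBP letters in 22.0% against 20.4%, SOX letters in 26.0% against 21.7% and forkhead letters (TGTTTAC) in 5.51% against 6.59%. Of these 10 motifs, only ETS had an interval that left out the share over all regions. In the central 200 bp the ETS share was 11.0% (6.68% to 17.7%) against 7.71%, an interval that held it. The motifs were also counted in HE-only regions, MAC-only regions and regions of 2 or more stages. Not all of these shares are given. In each class the ETS interval over 500 bp held the share of the series. In 200 bp only that of HE-only regions left it out (18.9%, 9.48% to 34.2%, against 9.20%). Among the 37 HE-only regions, E-box letters were in 32 (86.5%, 72.0% to 94.1%) against 74.6% of all HE-only regions, inside the interval. TEAD letters were in 21.6% against 32.1% and SOX letters in 21.6% against 30.6%, also inside. Among the 51 MAC-only regions, RUNX letters were in 12 (23.5%, 14.0% to 36.8%) against 41.2%. In HE-only regions they were in 37.8% against 32.6%, and in regions of 2 or more stages in 40.6% against 27.2%. For these classes the interval held the share of the series. CEBP letters were in 18 MAC-only regions (35.3%, 23.6% to 49.0%) against 30.3%, inside the interval. In the central 200 bp the CEBP order was reversed, with 9.80% (4.26% to 21.0%) against 16.9% in MAC-only regions and 4.72% against 9.68% over all regions.

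Further combinations of motifs, 4 pairs and 1 triple, were counted after the single shares were known. ETS and RUNX letters occurred together in 13 regions (10.2%, 6.08% to 16.7%), against 4.88% of all regions. They belonged to 6 of the 8 genes, Fli1, Erg, Ets1, Etv6, Elk3 and Elf1. ETS and E-box letters occurred together in 20 regions (15.7%, 10.4% to 23.1%, against 10.8%), ETS and GATA letters in 6 (4.72% against 3.38%) and GATA and E-box letters in 22 (17.3% against 17.3%). ETS, GATA and E-box letters together, a combination known from blood enhancers, were in 4 regions (3.15%, 1.23% to 7.82%, against 2.51%).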

How the data were processed

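DNaseI-seq was carried out by the authors on 5 sorted populations. Per the methods of the study and the labels, the authors used CutAdapt for trimming and Bowtie for alignment to mm10 (GRCm38), where reads with a single best place were retained and Picard took out duplicates. DFilter then called the sites, working in 100 bp bins. The submitters' processing notes also name HOMER. Versions of these tools are not given in the sources used here. The deposited values are the start and end of each site in base pairs, with no height, read count or score, so a called site carries no depth or error, and width was the only property by which lists could be made stricter.

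The 8 genes, the motif letters and the marker lists were chosen with earlier results of these data known. Starts, genes and exons came from RefSeq for GRCm38, with curated mRNAs for the nearest gene and all transcripts for promoters. Sequences are credited to RefSeq, build GRCm38, where 6 of 8 genes matched the promoter table. All 8 genes were named, the other 18 ETS genes by promoter pattern only, and singly regions, though not every one, that lay at a start, were listed in 4 or 5 stages, were the widest of a gene beyond 2 kb, or belonged to Etv2. Regions named for another reason were chosen after their values were seen. Shares have 95% Wilson intervals. The assignment and merging were tested on simulated lists. The alternatives were other promoter reaches (2 kb and 100 bp), curated starts alone, lists reduced by width, a limit of 50 kb, the nearest gene by span, all sites inside a gene, and merging by 250 bp or by deposited intervals. Python 3.11.15 with numpy 2.4.6, scipy 1.17.1 and matplotlib 3.10.9 was used.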

Additional observations from a re-analysis of the deposited data

How the results depend on the processing

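Each stage has 1 list, so no replicate could be left out, and no paired analysis was possible because there are no replicates to pair. The number of genes with a promoter site changed by at most 1.5 times in every stage under a reach of 2 kb, a reach of 100 bp, curated starts alone and both reductions by width, the largest change being from 6 to 4 genes in HP without the narrower sites. Counts of sites and regions fell where sites were removed. When sites narrower than the median of their list were dropped, the 8 genes kept 8, 10, 35, 7 and 31 sites from MES to MAC, in 64 regions, of which 51 were listed in 1 stage, 24 in HE only, 25 in MAC only and 6 in HE and MAC. When every longer list was reduced to as many of its widest sites as HP has in all, 33 sites remained in HE and 28 in MAC, in 66 regions, of which 47 were listed in 1 stage, 19 in HE only, 22 in MAC only and 6 in HE and MAC. An overlap of 250 bp for merging left 2 regions in all 5 stages in place of 4. Of 172 values recomputed, 126 stayed within 1.5 times or their interval and 46 did not, 9 of these being motif shares in 200 bp, a shorter window. Fli1 had 0 regions in both HE and MAC under the 7 alternatives for regions. Without read depth, which was not used here, a site missing from a list cannot be read as closed chromatin.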

Other observations

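For the 6 genes with at least 10 merged regions, the protein-coding genes with the most similar numbers of sites over the 5 lists were named, by the sum of absolute differences of the 5 counts. Inpp5a and Pdp1 were among 3 genes nearest to Elf1, each differing by 1 site. Nearest to Etv6 was S1pr1, with 2, 3, 11, 5 and 16 sites from MES to MAC, a difference of 2. Jazf1 followed with a difference of 4. Nearest to Elk3 were Vav3, with a difference of 3, and Akap13, with a difference of 4. Nearest to Erg were Zfpm2, with a difference of 2, and Adora2a, with a difference of 3. Fli1 had Cdkal1 and Dlg2 among 6 genes at a difference of 3, and Ets1 had Pakap at 6 and Cstad at 8. The counts are small and several genes tie at the second distance, 21 of them for Erg. Tied genes were named in the order of their symbols. The measure compares numbers of sites and not their positions.

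A further 3 sites lay inside a member gene and were assigned to a neighbour whose start was nearer, 2 MAC sites in Etv6 to Bcl2l14 and 1 HE site in Elf1 to Sugt1.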
